A study of Mus musculus with 34 samples.

Results

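The 44 genes described here form a list of germline and meiosis genes given by name, with no measured value in its rule, though it was drawn up with earlier results of these data known. They were found by matching the Ensembl identifiers of the count files to mouse gene symbols. All 44 were listed among the 48709 genes of the Mta123 set of libraries and among the 22018 genes of the single-mutant set. The study asked what the NuRD complex, a chromatin remodelling and histone deacetylase complex held together by the MTA proteins, does in mouse embryonic stem (ES) cells of the 129/Ola strain. RNA-seq was made from 34 libraries in 2 sets.

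The Mta123 set held 16 libraries, 4 in each of 4 groups, and each group came from 2 ES cell lines with 2 libraries per line, as read from the library numbers. Control cells were described by the study as already lacking 1 copy of Mta1 and as carrying floxed Mta3 alleles, with Mta2 intact. Mta123KO cells lacked functional Mta1, Mta2 and Mta3, the last deletions having been made with Cre recombinase. Both genotypes were labelled either as grown in 2iL, which adds LIF and blockers of Mek and Gsk3 and holds mouse ES cells in self-renewal, or as kept for 48 h in N2B27 without the inhibitors and LIF, which starts differentiation towards neuroectoderm. The single-mutant set held 18 libraries from cells in 2iL, 3 in each of 6 groups. Mta1_del/del and Mta3_del/del were compared with Mta1_flox/flox and Mta3_flox/flox cells, and Mta2_KO was compared with wild-type cells, Mta2_WT. The study speaks of parent lines of the single mutants, and also of null ES cell lines derived from mice in which Cre had deleted floxed exons. Whether the deletions were made within these flox cells is not settled by its text. Whether libraries of a line were separate cultures was not stated, so that p-values measure the spread between these libraries, which may be technical in part.

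Germline genes are used by germ cells and are kept largely silent in most other cells. Many have CpG-rich promoters that are silenced by DNA methylation, and in ES cells also by repressors that bind E-box or E2F sites, among them the PRC1.6 complex with MGA, MAX, L3MBTL2 and E2F6. Their products build the synaptonemal complex, cut and repair DNA in meiotic recombination, hold sister chromatids together, and make piRNAs, the small RNAs that guide PIWI proteins to silence transposons in the male germline. ES cells transcribe several of them without entering meiosis.

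Total gene counts ran between 37855790 and 57602285 per library in the Mta123 set and between 13105820 and 40613585 for the single mutants, and 3 counts in a library, the least taken here as detection, correspond to 0.0521 to 0.0793 CPM in the former. Levels are given in CPM, a gene's count relative to the library total, with totals scaled by TMM, the trimmed-mean normalization of edgeR. In bulk RNA, fewer cells expressing a gene and less RNA per cell cannot be told apart. Mean Mta2 was at 6.71 CPM in Mta123KO against 122.6 CPM in Control labelled 2iL, at 8.28 against 192 CPM labelled 48h, and at 9.93 CPM in Mta2_KO against 225 CPM in Mta2_WT. Mean Mta3 in the same order was at 18.9 against 65.1 and 15 against 40.8 CPM, and at 11.3 CPM in Mta3_del/del against 70.2 CPM in its parent. Mean Mta1 was at 24.6 against 42.0, 17.8 against 28.5 and, in Mta1_del/del, 43.9 against 86.1 CPM. Its deletion removes exon 2, so that counts from the remaining exons do not check the genotype. All 10 ES cell markers had a mean of at least 1 CPM in each of the 10 groups. In the Mta123 set, file names give the opposite culture to the sample labels, and the labels are followed here. In Control cells the summed ES cell markers were higher in libraries labelled 48h (5344 to 6074 CPM) than in those labelled 2iL (1572 to 1688 CPM), and the summed formative or primed markers were lower (76.5 to 88.2 against 847 to 1407 CPM). In the single-mutant libraries, from cells in 2iL, the same sums were 5320 to 8494 CPM and 83.5 to 228 CPM. Control libraries labelled 48h lay within the first range and overlapped the second, and those labelled 2iL lay outside both. Which culture each library had was not tested. Exchanging the culture labels would exchange the 2 comparisons of Mta123KO with Control and turn the sign of each culture difference.

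Most members were already counted in Control cells. The mean was at least 1 CPM for 35 of the 44 members in Control labelled 2iL and for 32 in Control labelled 48h, and for 39 and 38 in the matching Mta123KO groups. Summed over the members, expression ran from 584.7 to 722.2 CPM in Control and from 815.7 to 992.1 CPM in Mta123KO labelled 2iL, and from 513.1 to 641 CPM in Control and from 668.9 to 822.9 CPM in Mta123KO labelled 48h. Mta123KO libraries lay above the Control libraries of the same label in this sum. Per kilobase of exon, the highest member in Control labelled 2iL was Tex19.1, a gene of transposon control in germ cells and placenta, at 38.4 CPM per kb. It was followed by Hormad1, a protein of the meiotic chromosome axis, at 28.6, and by Syce2, of the central element of the synaptonemal complex, at 21.5 CPM per kb. In Control labelled 48h the order was Tex19.1 at 43.2, Fkbp6, an immunophilin of piRNA production, at 21.2, and Hormad1 at 20.7 CPM per kb. Tex19.1 has a close neighbouring copy, Tex19.2, and the handling of reads that align to both was not stated. At the other end, Figla, a transcription factor of oocytes, held no count in any Control library labelled 48h.

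Mta123KO cells differed from Control cells in 22 members under the 2iL label and in 20 under the 48h label, mostly upward (the plot of all members by role). Members were called where the Benjamini-Hochberg adjusted p over all genes tested was under 0.05 and the absolute log2 fold change was above 1. Among libraries labelled 2iL, 16 of the 42 members tested were higher and 6 were lower in Mta123KO. Of all genes tested in this comparison, 13.2% were called higher and 7.43% lower. Among libraries labelled 48h, 16 of 40 were higher and 4 lower, against 14.1% and 5.93% of all genes. The median log2 fold change over the members was 0.39 (labelled 2iL) and 0.70 (labelled 48h), with 0.01 and 0.00 over all genes tested. Of the members called higher, 12 of 16 in each list were shared, and 3 of the 6 and 3 of the 4 lower members were shared. The 2 comparisons hold different libraries of the same cell lines. Tdrd6 and Figla were too low to be tested under either label, and Spo11 and Mei1 also under the 48h label. Some members passed the filter on low counts without all libraries over it in both groups, 2 of them (Spo11, Mei4) under the 2iL label and 5 (Tdrd1, Asz1, Sycp2, Mei4, Slc25a31) under the 48h label. A member that passes only through the group where it is high is bound to differ, so that calls and p-values of these members are descriptions only. When the 2 libraries of a line were summed, so that 2 lines stood against 2, 13 members (11 higher, 2 lower) were called under the 2iL label and 17 (15 higher, 2 lower) under the 48h label. The share of all genes called in that fit is not given here, so that these counts are a description only.

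**Figure D1:**
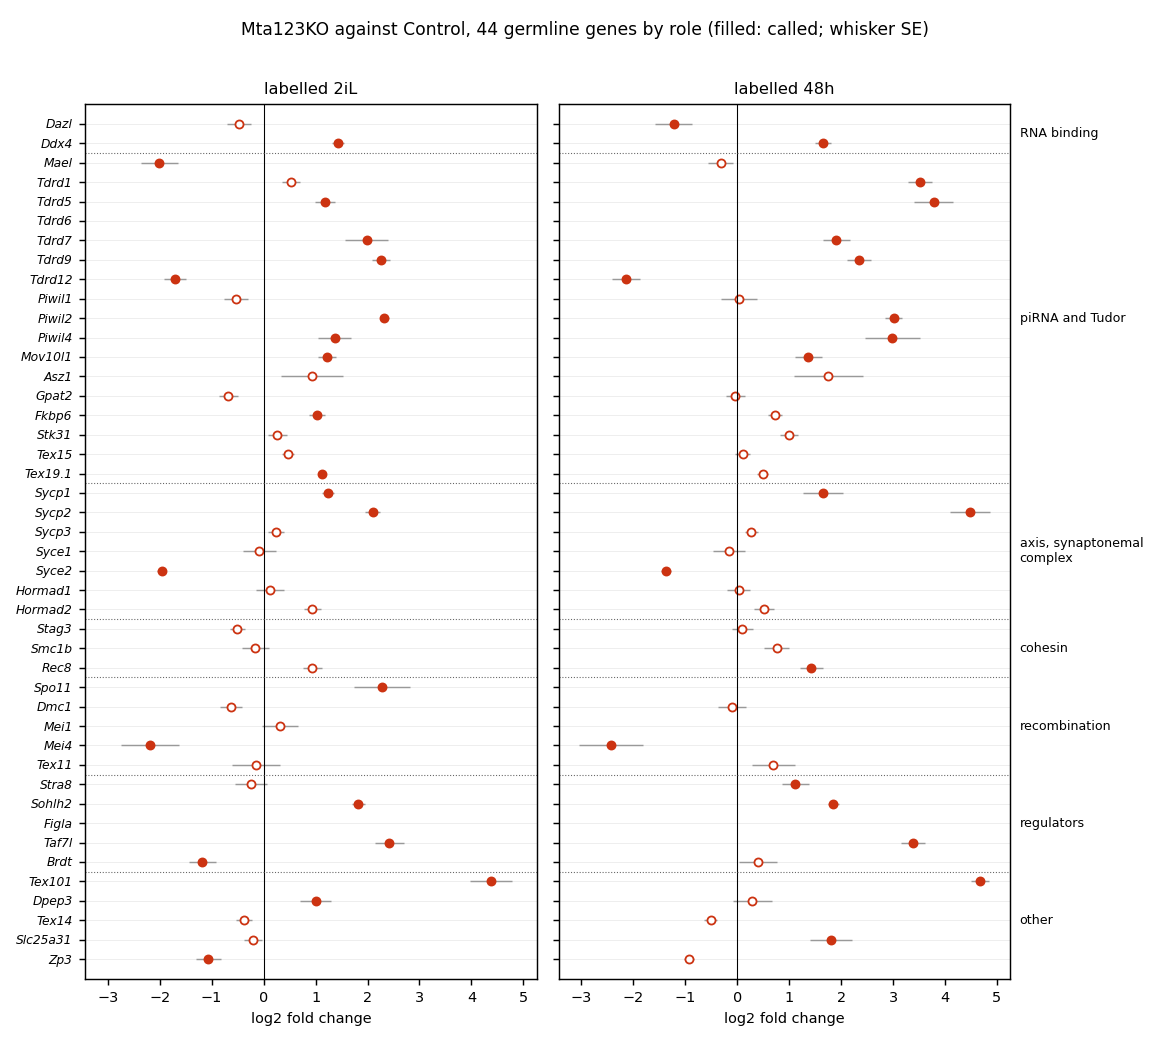
Log2 fold change of Mta123KO against Control (horizontal axis, log2 scale, bars ± SE) for the 44 members grouped by role, with libraries labelled 2iL and labelled 48h side by side, 4 libraries a group. Filled points are called members, 16 higher and 6 lower under the 2iL label and 16 higher and 4 lower under the 48h label, and Tex101 lies farthest to the right under both.

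Among the 17 genes of the piRNA pathway and Tudor-domain proteins, 16 were tested under each label. Of these, 8 rose and 2 fell in Mta123KO labelled 2iL, and 7 rose and 1 fell in Mta123KO labelled 48h. In the values that follow, the 4 libraries of a group are given with the pair of line 1 first and then the pair of line 2. Piwil2 (ENSMUSG00000033644, chr14:70372477-70429383, minus strand, in GRCm38 as are all positions here) encodes MILI, the PIWI protein that starts piRNA amplification. It was at 20.7, 22.8, 20.9 and 24.5 CPM in Control and 106.5, 98.7, 114 and 118 CPM in Mta123KO labelled 2iL, and at 5.41, 7.64, 5.0 and 6.55 against 42.6, 43.4, 56.1 and 54.5 CPM in those labelled 48h. The lowest Mta123KO library stood far above the highest Control library under both labels, and the log2 fold changes were 2.32 ± 0.09 (SE, adjusted p = 8.04e-07) and 3.01 ± 0.16 (adjusted p = 2.66e-06). Piwil4 (ENSMUSG00000036912, chr9:14696230-14740733, minus strand) encodes MIWI2, the nuclear PIWI protein that directs DNA methylation to transposons. Its libraries were at 2.08, 3.01, 3.79 and 4.34 CPM in Control and 10.6, 11.6, 6.38 and 5.12 CPM in Mta123KO labelled 2iL, and at 0.229, 0.263, 0.287 and 0.513 against 3.93, 3.94, 1.32 and 1.04 CPM when labelled 48h. All Mta123KO libraries lay above Control, with line 1 above line 2 under both labels, and the log2 fold changes were 1.36 ± 0.31 (adjusted p = 0.00548) and 2.99 ± 0.53 (adjusted p = 0.00143). With the libraries of a line summed, Piwil4 was no longer called under the 2iL label. Piwil1, which encodes the third PIWI protein and acts later in sperm development, was not called, with log2 fold changes of -0.53 ± 0.24 and 0.03 ± 0.35.

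Tudor-domain proteins bind methylated PIWI proteins and gather them in germ granules, and members of this family went in both directions. Tdrd9, an RNA helicase of the family, was at 0.599, 0.685, 0.517 and 0.510 CPM in Control and 3.06, 2.95, 2.33 and 2.69 CPM in Mta123KO labelled 2iL, and at 0.987, 1.45, 0.910 and 0.839 against 5.11, 3.78, 6.08 and 6.17 CPM when labelled 48h. Each Mta123KO library exceeded every Control library of its label, by log2 fold changes of 2.27 ± 0.17 (adjusted p = 1.79e-05) and 2.35 ± 0.23 (adjusted p = 5.57e-05). Tdrd7, which also acts in the lens, rose from 0.779, 0.914, 0.849 and 1.26 to 5.29, 5.71, 1.89 and 1.96 CPM under the 2iL label and from 0.511, 0.736, 0.766 and 0.816 to 2.96, 3.52, 2.08 and 1.95 CPM under the 48h label. The groups did not overlap, and the 2 libraries of line 1 were the highest in both (log2 fold changes 1.98 ± 0.41, adjusted p = 0.00329, and 1.91 ± 0.26, adjusted p = 0.000316). With lines summed, the Tdrd7 call was lost under the 2iL label.

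Tdrd5 and Tdrd1, both parts of the granules in which piRNA precursors are processed, differed most between genotypes under the 48h label, where Control was low. Tdrd5 (ENSMUSG00000060985, chr1:156255296-156303664, minus strand) was at 0.335, 0.342, 0.479 and 0.326 CPM in Control and 2.96, 3.08, 7.33 and 6.92 CPM in Mta123KO labelled 48h (log2 fold change 3.78 ± 0.38, adjusted p = 6.29e-05). When labelled 2iL it was at 3.4, 2.97, 3.87 and 3.46 against 6.73, 5.55, 10.3 and 8.05 CPM (1.18 ± 0.19, adjusted p = 0.000969), a call that was lost with lines summed. Control and Mta123KO libraries were apart under both labels, and Control libraries labelled 48h all stood under 0.5 CPM. Tdrd1 (ENSMUSG00000025081, chr19:56826209-56870012, plus strand) was at 0.194, 0.289, 0.239 and 0.326 CPM in Control and 3.28, 3.5, 2.46 and 2.65 CPM in Mta123KO labelled 48h (log2 fold change 3.51 ± 0.23, adjusted p = 6.75e-06). This call is a description only, as Tdrd1 passed the filter on low counts without all libraries over it in both groups. In libraries labelled 2iL the values were 2.92, 3.26, 3.35 and 3.33 against 3.65, 3.67, 5.39 and 5.62 CPM, which did not overlap but differed by 0.53 ± 0.17 on the log2 scale and were not called. An opposite-strand gene of low count overlaps exons of Tdrd5, and one overlaps those of Piwil4. The libraries were made with directional kits, but the strand setting of the counting was not stated.

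Tdrd12 and Mael went the other way. Tdrd12 (ENSMUSG00000030491, chr7:35469098-35537745, minus strand), a helicase-like Tudor protein needed for secondary piRNAs, was at 72.8, 65.2, 45.5 and 39.1 CPM in Control and 14.8, 13.9, 19.5 and 19.2 CPM in Mta123KO labelled 2iL, and at 97.5, 94.7, 75.8 and 69 against 11.8, 12.9, 27 and 24 CPM when labelled 48h. Every Mta123KO library lay below every Control library, by log2 fold changes of -1.71 ± 0.21 (adjusted p = 0.000199) and -2.15 ± 0.27 (adjusted p = 0.000231). Mael (Maelstrom, ENSMUSG00000040629, chr1:166201201-166238747, minus strand), a transposon-silencing factor, was at 22.9, 27.3, 16.1 and 19.9 CPM in Control and 2.89, 2.9, 7.4 and 8.03 CPM in Mta123KO labelled 2iL, a log2 fold change of -2.01 ± 0.36 (adjusted p = 0.00161). The groups were apart and the 2 libraries of line 1 were the lowest, and the call was lost with lines summed. Labelled 48h, Mael was low in both genotypes, at 1.94, 3.05, 2.08 and 2.19 against 1.82, 2.46, 1.23 and 1.84 CPM, the groups overlapped and it was not called (-0.32 ± 0.24).

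Of the other piRNA genes, Mov10l1, the helicase that feeds precursors to PIWI proteins, rose under both labels, by 1.22 ± 0.17 and 1.37 ± 0.26 on the log2 scale, and with lines summed the call under the 48h label was lost. Tex19.1 (71.8 ± 3.91 against 155 ± 15.8 CPM, SD, n = 4 each) and Fkbp6 (17.3 ± 1.99 against 34.9 ± 7.75 CPM) were called higher under the 2iL label, with log2 fold changes of 1.12 ± 0.08 and 1.03 ± 0.16, and not under the 48h label (0.49 ± 0.11 and 0.72 ± 0.13). The Fkbp6 call was lost without library 1 of line 1. Asz1, Gpat2, Stk31, Tex15 and Piwil1 were called under neither label. Asz1, which anchors germ granules to mitochondria, was an extreme case of lines that differed and is given with the lines below.

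**Figure D2:**
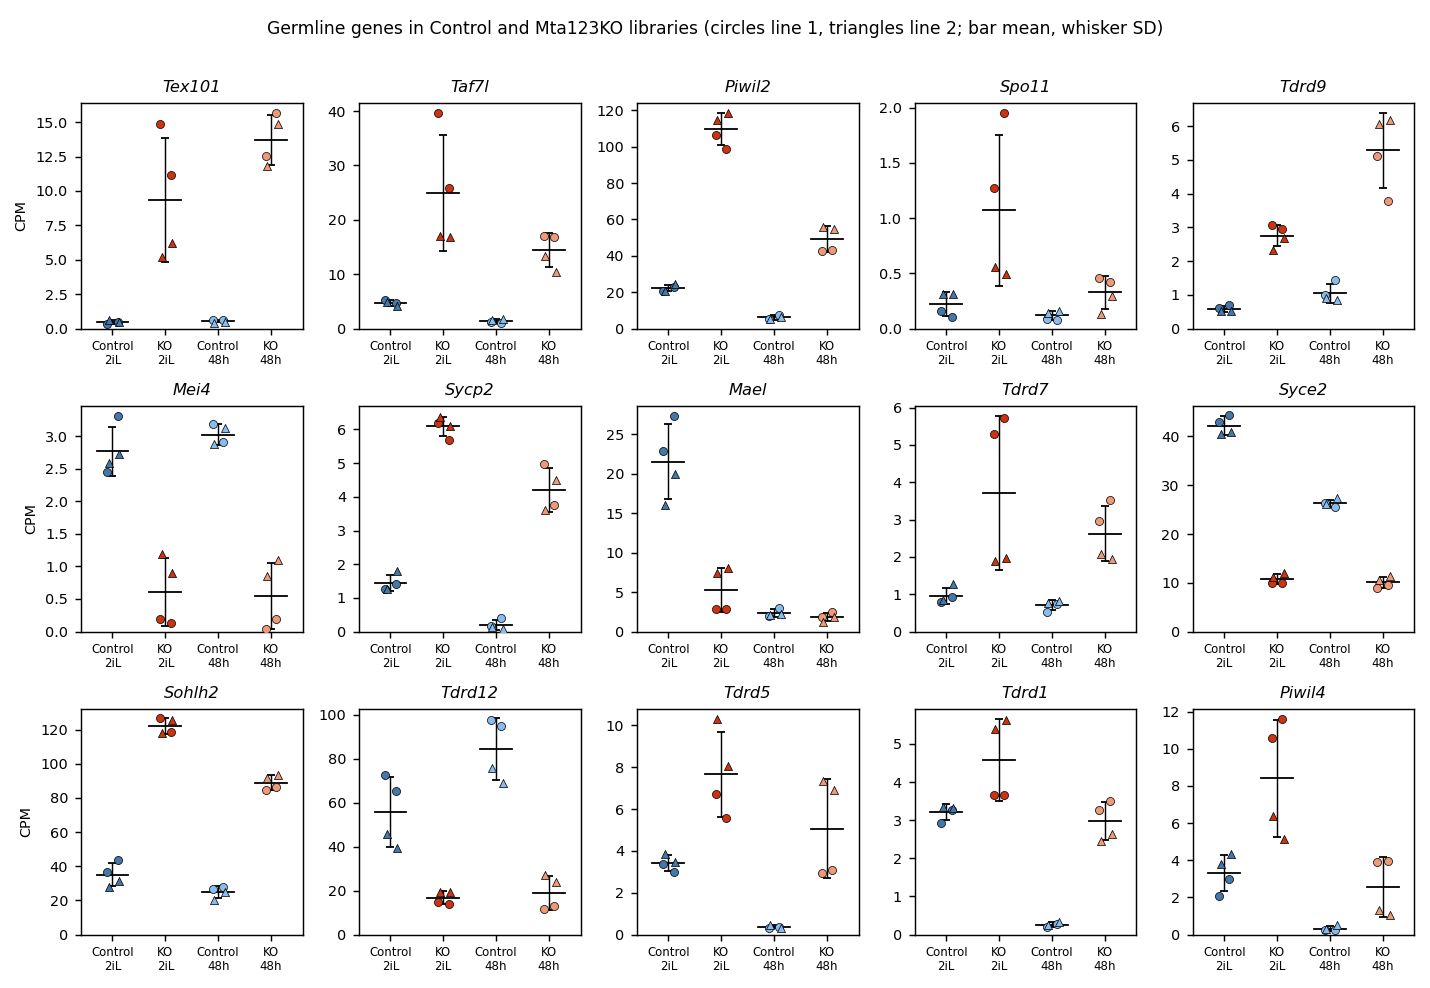
CPM (vertical axes, linear from 0, a scale for each gene) of 15 members in the 16 libraries of the Mta123 set, Control and Mta123KO under each culture label, with circles for line 1, triangles for line 2, a horizontal bar for the mean and whiskers for the SD of 4 libraries. Tex101, Piwil2 and Tdrd9 show Mta123KO libraries above all Control libraries under both labels, Syce2, Mei4 and Tdrd12 show them below, and Tdrd1, Sycp2 and Mael show the fall of Control libraries from the 2iL to the 48h label.

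The 7 genes of the chromosome axis and synaptonemal complex, all tested, went in both directions. Under each label 2 were higher (Sycp1, Sycp2), 1 was lower (Syce2) and 4 were not called. Sycp2 (ENSMUSG00000060445, chr2:178345293-178407685, minus strand), a protein of the lateral elements, was at 1.28, 1.41, 1.26 and 1.79 CPM in Control and 6.18, 5.69, 6.38 and 6.11 CPM in Mta123KO labelled 2iL, and at 0.159, 0.394, 0.144 and 0.0699 against 4.97, 3.76, 3.6 and 4.51 CPM when labelled 48h. All Mta123KO libraries were well above all Control libraries. The log2 fold changes were 2.1 ± 0.15 (adjusted p = 1.12e-05) and 4.48 ± 0.38 (adjusted p = 2.61e-05). Under the 48h label Sycp2 passed the filter on low counts without all libraries over it in both groups, so that this call is a description only. Sycp1, the transverse filament that joins paired chromosomes, rose from 7.98 ± 0.752 to 18.6 ± 2.4 CPM labelled 2iL (1.24 ± 0.12) and from 3.29 ± 0.395 to 10.2 ± 5.92 CPM labelled 48h (1.65 ± 0.39), the latter call being lost with lines summed. Syce2 (ENSMUSG00000003824, chr8:84872111-84888221, plus strand), of the central element, was at 43.1, 44.5, 40.5 and 40.9 CPM in Control and 9.87, 9.88, 11.1 and 12.1 CPM in Mta123KO labelled 2iL, and at 26.3, 25.6, 26.1 and 27.4 against 8.85, 9.63, 10.6 and 11.4 CPM when labelled 48h. Its libraries were tight within each group and the groups lay far apart, with log2 fold changes of -1.96 ± 0.09 (adjusted p = 1.36e-06) and -1.37 ± 0.09 (adjusted p = 7.29e-06). Hormad1, one of the highest members, was at 49.5 ± 9.19 CPM in Control and 53.5 ± 21.6 CPM in Mta123KO labelled 2iL and did not pass the test. Sycp3, partner of Sycp2 in the lateral element, had log2 fold changes of 0.24 ± 0.15 and 0.27 ± 0.13, and its exons overlap the opposite-strand gene Chpt1.

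Of the 3 meiotic cohesin subunits, Rec8, which replaces the mitotic kleisin in meiosis, was the one called. It was at 10.8, 15.9, 11.7 and 14.4 CPM in Control and 28.4, 31.3, 20.3 and 20.2 CPM in Mta123KO labelled 2iL (0.94 ± 0.18, adjusted p = 0.00235), short of the fold threshold, and at 15.9, 19.07, 12 and 13.3 against 49.9, 50.5, 29.1 and 31.7 CPM when labelled 48h (1.43 ± 0.22, adjusted p = 0.000672). Mta123KO libraries lay above Control libraries under both labels. Smc1b and Stag3 were not called, with log2 fold changes between -0.51 and 0.76.

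The 5 recombination genes included the lowest levels. Spo11 (ENSMUSG00000005883, chr2:172977700-172993576, plus strand), the enzyme that makes meiotic DNA breaks, was at 0.160, 0.104, 0.310 and 0.310 CPM in Control and 1.27, 1.95, 0.558 and 0.495 CPM in Mta123KO labelled 2iL. The groups did not overlap, line 1 was higher than line 2, and the log2 fold change was 2.28 ± 0.54 (adjusted p = 0.00638), a call that was lost with lines summed. Labelled 48h, it was at 0.0881, 0.0788, 0.144 and 0.163 against 0.462, 0.418, 0.134 and 0.292 CPM, too low for the test. Mei4 (ENSMUSG00000043289, chr9:81863670-82206007, plus strand), which is required for Spo11 to cut, was at 2.46, 3.3, 2.59 and 2.73 CPM in Control and 0.191, 0.136, 1.19 and 0.904 CPM in Mta123KO labelled 2iL, and at 3.19, 2.92, 2.87 and 3.12 against 0.0462, 0.198, 0.849 and 1.09 CPM when labelled 48h. Each Mta123KO library lay below every Control library and line 1 lay below line 2, with 1 library of line 1 labelled 48h under 3 counts. The log2 fold changes were -2.18 ± 0.56 (adjusted p = 0.00981) and -2.43 ± 0.61 (adjusted p = 0.00915), and both calls were lost with lines summed. Dmc1, the strand-exchange protein, went from 23.1 ± 5.37 to 14.8 ± 4.02 CPM labelled 2iL (-0.63 ± 0.22) without being called. Tex11 and Mei1 were not called under the 2iL label, and their lines differed.

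Among the 5 genes that govern entry into meiosis and germ cell transcription, Taf7l and Sohlh2 rose under both labels. Taf7l (ENSMUSG00000009596, chrX:134460118-134476490, minus strand), a germ cell form of a TFIID subunit, was at 5.25, 4.63, 4.84 and 4.08 CPM in Control and 39.6, 25.9, 17.1 and 16.9 CPM in Mta123KO labelled 2iL, and at 1.18, 1.02, 1.51 and 1.82 against 17, 16.8, 13.4 and 10.4 CPM when labelled 48h. Mta123KO libraries were all above Control, line 1 above line 2, by 2.42 ± 0.28 (adjusted p = 0.00013) and 3.39 ± 0.23 (adjusted p = 7.91e-06) on the log2 scale. Sohlh2 (ENSMUSG00000027794, chr3:55182028-55209957, plus strand), a helix-loop-helix factor of early germ cell differentiation, was at 36.9, 43.6, 28.1 and 31.3 CPM in Control and 126.5, 118.5, 118 and 126 CPM in Mta123KO labelled 2iL, and at 26.5, 27.9, 20.2 and 24.6 against 84.3, 86.1, 91.9 and 93.6 CPM when labelled 48h. Line 1 rose by 1.81 and line 2 by 1.81 labelled 2iL. Over both lines the log2 fold changes were 1.82 ± 0.13 (adjusted p = 1.12e-05) and 1.85 ± 0.10 (adjusted p = 3.14e-06), and the groups were apart under both labels. Stra8, the retinoic acid target that licenses meiosis, was at 15.9, 26.2, 13.3 and 17.4 CPM in Control and 8.4, 12.9, 16.4 and 23.4 CPM in Mta123KO labelled 2iL, groups that overlapped, and at 6.4, 10.8, 4.79 and 9.23 against 12.2, 18.1, 15.2 and 21.8 CPM when labelled 48h, where it was called higher (1.12 ± 0.26). That call was lost without library 1 of line 2. Brdt, a bromodomain protein of spermatogenesis, was called lower under the 2iL label, at 1.44, 2.33, 1.32 and 1.79 against 0.998, 0.725, 0.777 and 0.495 CPM (-1.18 ± 0.27), a call lost with lines summed or without library 2 of line 1. Under the 48h label it was at 1.66, 1.45, 0.958 and 1.66 against 0.970, 1.21, 2.95 and 2.39 CPM, with only line 2 above Control, and was not called (0.40 ± 0.36).

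Tex101 (ENSMUSG00000062773, chr7:24668007-24676675, minus strand), a surface protein of germ cells needed for sperm to reach the oocyte, had the largest positive log2 fold change of the members under both labels. It was at 0.300, 0.457, 0.621 and 0.443 CPM in Control and 14.9, 11.1, 5.17 and 6.24 CPM in Mta123KO labelled 2iL, and at 0.599, 0.631, 0.431 and 0.489 against 12.5, 15.6, 11.8 and 14.8 CPM when labelled 48h. No Control library reached 1 CPM and no Mta123KO library was under 5 CPM, with log2 fold changes of 4.37 ± 0.40 (adjusted p = 4.36e-05) and 4.67 ± 0.17 (adjusted p = 6.48e-07). Slc25a31, the ADP/ATP carrier of sperm, was at 0.247, 0.210, 0.335 and 0.419 CPM in Control and 0.393, 1.27, 1.39 and 1.15 CPM in Mta123KO labelled 48h, where it was called higher (1.80 ± 0.41) although 1 Mta123KO library lay within the Control range. Under the 2iL label Slc25a31 was at 1.16, 1.54, 1.35 and 1.31 CPM in Control and 1.06, 1.16, 0.995 and 1.38 CPM in Mta123KO and was not called (-0.20 ± 0.18). Zp3, a protein of the egg coat, was at 4.61, 3.28, 4.37 and 3.28 CPM in Control and 1.19, 1.56, 2.21 and 2.37 CPM in Mta123KO labelled 2iL, where it was called lower (-1.07 ± 0.24), and at 10.3, 9.01, 8.62 and 9.7 against 4.71, 5.03, 4.98 and 4.91 CPM when labelled 48h, where it lay just short of the fold threshold (-0.93 ± 0.10). The groups were apart under both labels, and the call was lost with lines summed or without library 1 of line 1. Dpep3, a dipeptidase that partners Tex101, was called higher under the 2iL label at the edge of the threshold, with a log2 fold change of 1.004 ± 0.30, and the call was lost under most alternatives. Its Control and Mta123KO libraries overlapped, and an opposite-strand gene overlaps its exons. Tex14, a protein of the bridges between germ cells, was not called.

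Of the germ cell RNA-binding proteins, Ddx4, the mouse Vasa helicase, rose under both labels, and Dazl, a translational regulator, fell under the 48h label. Ddx4 was at 14.4, 15.5, 11.4 and 13.1 CPM in Control and 35.2, 31.8, 40 and 38.5 CPM in Mta123KO labelled 2iL (1.43 ± 0.11), and at 5.76, 5.75, 5.79 and 5.5 against 14.7, 13.8, 21.1 and 21.5 CPM when labelled 48h (1.65 ± 0.16). All Mta123KO libraries lay above Control. Dazl was at 18, 27.9, 17 and 24.5 CPM in Control and 5.78, 4.57, 13.7 and 13.1 CPM in Mta123KO labelled 48h, a log2 fold change of -1.23 ± 0.35 (adjusted p = 0.0168). The groups were apart with line 1 lowest, but the call was lost with lines summed or without either number of line 1. Under the 2iL label its groups overlapped (-0.47 ± 0.23).

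Promoter sequences, the 250 bases before the annotated start in RefSeq (GRCm38.p6), were found for 39 of the 44 members, and 5 are printed because their genes carry the changes above and because they differ in the motifs that the known repressors of germline genes bind. They are written from 5′ to 3′ on the strand of the gene. Letters in capitals mark the E-box CACGTG, which reads the same on both strands, and the E2F6 site TCCCGC or its complement GCGGGA. The motifs do not overlap each other. The sequence of Tex101 at chr7:24672051-24672300 (minus strand) holds neither. It lies inside the gene as annotated for the counts (chr7:24668007-24676675), so that this holds for the RefSeq start only. Those of Taf7l at chrX:134476491-134476740 (minus strand) and Sycp1 at chr3:102936101-102936350 (minus strand) hold 1 E-box each, 49 and 94 bases before the start. That of Tdrd9 at chr12:111971309-111971558 (plus strand) holds E-boxes 165 and 95 bases before the start, and that of Mael at chr1:166238745-166238994 (minus strand) holds an E-box 223 and an E2F6 site 143 bases before it.
Tex101: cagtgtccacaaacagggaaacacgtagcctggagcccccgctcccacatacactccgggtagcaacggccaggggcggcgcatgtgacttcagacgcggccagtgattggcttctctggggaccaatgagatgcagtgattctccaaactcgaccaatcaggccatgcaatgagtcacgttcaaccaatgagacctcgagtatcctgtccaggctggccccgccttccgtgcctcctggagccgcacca
Taf7l: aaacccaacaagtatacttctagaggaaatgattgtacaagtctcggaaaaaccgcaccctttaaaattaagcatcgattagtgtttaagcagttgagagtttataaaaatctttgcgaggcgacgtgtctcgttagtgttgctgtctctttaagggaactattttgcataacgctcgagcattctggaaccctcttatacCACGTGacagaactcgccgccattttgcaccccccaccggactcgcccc
Sycp1: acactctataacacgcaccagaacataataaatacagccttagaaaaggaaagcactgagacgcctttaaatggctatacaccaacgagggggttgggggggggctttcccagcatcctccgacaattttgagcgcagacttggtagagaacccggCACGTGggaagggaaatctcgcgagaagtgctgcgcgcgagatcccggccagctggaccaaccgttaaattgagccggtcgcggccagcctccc
Tdrd9: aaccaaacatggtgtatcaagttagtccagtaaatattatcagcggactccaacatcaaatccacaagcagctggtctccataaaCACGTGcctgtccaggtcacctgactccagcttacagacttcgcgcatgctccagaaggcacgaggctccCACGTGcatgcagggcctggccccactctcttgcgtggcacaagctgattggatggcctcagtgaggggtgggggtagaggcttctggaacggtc
Mael: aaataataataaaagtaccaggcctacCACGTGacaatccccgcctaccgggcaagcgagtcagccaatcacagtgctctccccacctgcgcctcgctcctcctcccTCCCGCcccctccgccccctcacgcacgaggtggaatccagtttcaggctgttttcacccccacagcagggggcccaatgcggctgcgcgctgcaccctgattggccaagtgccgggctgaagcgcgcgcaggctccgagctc

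CACGTG was found before 17 of the 39 members (43.6%) and before 6.86% of the 27025 genes with such a sequence. The members' sequences were also richer in CpG, with a median of 15 CpG against 6, and among sequences with at least 10 CpG the motif was in 15 of 33 members and in 10.8% of 10871 genes. The E2F6 site was before 11 members (28.2%) and before 18.8% of all genes, and among CpG-rich sequences in 11 of 33 members and 39.7% of genes. In Mta123KO labelled 2iL, 6 of the 17 tested members with an E-box were higher and 4 lower, and of the 21 without one, 8 were higher and 2 lower. Under the 48h label 7 of 17 with an E-box were higher and 1 lower, and of 20 without one, 8 were higher and 3 lower. In Mta2_KO 3 of 17 with an E-box were higher and 3 lower, and of 21 without one, 3 were higher and 0 lower. In Mta3_del/del 1 of 17 with an E-box was lower and 5 of 21 without one. For the E2F6 site, 3 of 11 members with it were higher and 2 lower under the 2iL label, and 3 and 1 under the 48h label. The motifs were chosen with the members known, a match is a description of the sequence and not a binding site, and no occupancy was measured.

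The 2 Mta123KO lines differed among themselves in a set of members (the plot of the lines). Each line, with 2 libraries, was set against the same 4 Control libraries, so that the line comparisons share their controls. Labelled 2iL, line 1 had 13 members higher and 7 lower of 43 tested, beside 16.3% and 10.6% of all genes, and line 2 had 16 higher and 5 lower, beside 12.5% and 8.33%. Labelled 48h, line 1 had 14 higher and 4 lower of 42, beside 16.8% and 8.2% of all genes, and line 2 had 20 higher and 3 lower, beside 13.7% and 6.61%. Set directly against each other, the lines differed in 10 members under the 2iL label, 3 higher and 7 lower in line 1, and 11.4% of all genes were called in either direction. With spike-in scaling, which moved the median of all genes in this comparison by 0.189, the split was 5 higher and 5 lower. Under the 48h label 13 members differed, 1 higher and 12 lower in line 1, beside 9.2% of all genes. Without library 1 of line 1, 8 differed. Lower in line 1 than in line 2 under both labels were 5 members, which are 5 of the 7 and 5 of the 12: Asz1, Mei1, Mei4, Syce1 and Tex11. Under the 48h label Mei1 and Spo11 were too low for the test with lines pooled and passed the filter on low counts in the fits of lines. A member that passes only through the line where it is high is bound to differ. The line calls of Mei1 and Spo11 under that label are therefore descriptions only. Mei4 and Tex11 kept their calls whichever library number was left out, Asz1 lost its call under the 48h label without library 2 of either line, Syce1 under that label without library 1 of line 1, and Mei1 without each of 3 numbers under either label.

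Tex11 (ENSMUSG00000009670, chrX:100838648-101059667, minus strand), an X-linked crossover protein, was at 6.73, 7.16, 23.5 and 29.3 CPM in Mta123KO and 21, 24.1, 14.7 and 15.1 CPM in Control labelled 2iL. Line 1 lay below all Control libraries and line 2 at the upper end of Control or above it, with line 1 minus line 2 at -1.93 ± 0.23 on the log2 scale (adjusted p = 0.000101). Labelled 48h, Tex11 was at 5.31, 4.48, 14.7 and 16.7 CPM in Mta123KO and 6.29, 8.62, 5.36 and 5.38 CPM in Control, line 1 below all of Control and line 2 above. Asz1 was at 0.340, 0.340, 1.92 and 1.42 CPM in Mta123KO and 0.280, 0.644, 0.745 and 0.443 CPM in Control labelled 2iL, and at 0.323, 0.286, 1.27 and 1.9 against 0.106, 0.315, 0.383 and 0.350 CPM when labelled 48h. Line 2 exceeded all Control libraries and line 1 lay within their range, and the lines differed by -2.29 ± 0.42 and -2.37 ± 0.48. Pooled over lines, neither gene was called. Syce1, of the central element, differed by -1.30 ± 0.18 and -1.20 ± 0.20 between lines and was at 3.67, 3.06, 7.5 and 9.04 CPM in Mta123KO labelled 2iL around 5.61, 5.44, 6.87 and 6.96 CPM in Control. Neither label gave a call of the lines for Sohlh2 or Piwil2. For Sohlh2 the difference between lines was 0.00 ± 0.16 and -0.11 ± 0.12, and for Piwil2 -0.19 ± 0.09 and -0.35 ± 0.15.

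**Figure D3:**
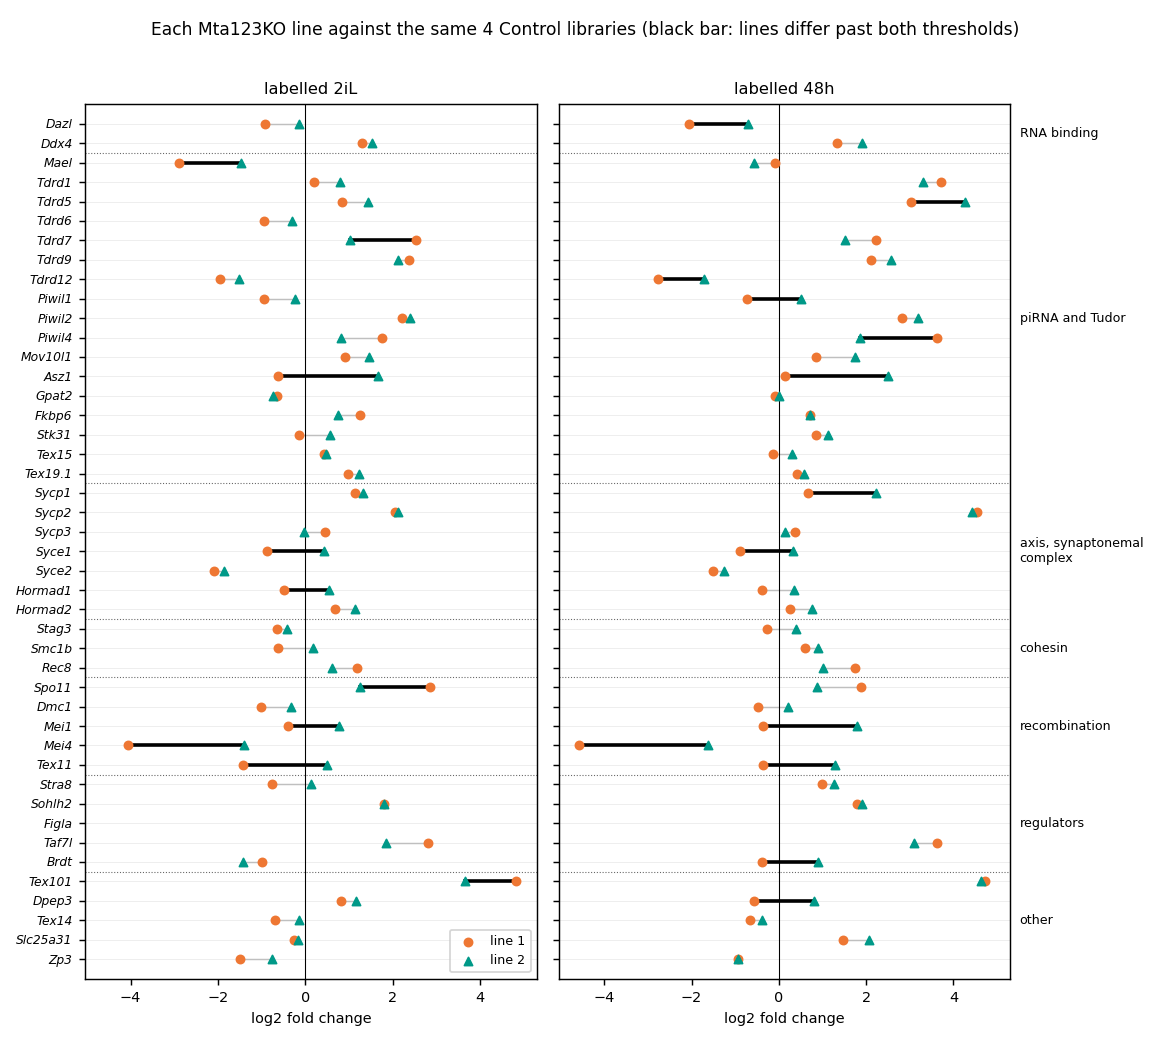
Log2 fold change (horizontal axis) of Mta123KO line 1 (circles) and line 2 (triangles), 2 libraries each, against the same 4 Control libraries for the members, under the 2iL and the 48h label, with the lines joined by a black bar where they were called different from each other and by a grey one otherwise. Black bars join 10 members under the 2iL label and 13 under the 48h label, and those of Mei4, Asz1 and Tex11 are long under both.

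Libraries labelled 48h were next set against those labelled 2iL within a genotype. In Control, 2 of 41 members tested were higher (Fkbp6, Zp3) and 16 lower when labelled 48h, beside 10.4% of all genes higher and 13.2% lower. The median log2 difference over members was -0.45. The lower ones were 6 genes of the piRNA pathway (Mael, Mov10l1, Piwil2, Piwil4, Tdrd1, Tdrd5) and 10 of the other roles, Sycp1, Sycp2, Smc1b, Dmc1, Mei1, Tex11, Stra8, Taf7l, Slc25a31 and Ddx4. Tdrd1 fell by 3.61 on the log2 scale (adjusted p = 5.54e-08), Piwil4 by 3.34, Mael by 3.21, Tdrd5 by 3.19, Sycp2 by 2.91 and Slc25a31 by 2.12. For each of these 6 the Control libraries of the 2 labels did not overlap, as the values above show. Zp3 rose by 1.29 ± 0.14, also without overlap. Tdrd1, Sycp2, Slc25a31 and Mei1 among the lower ones passed the filter on low counts without all libraries over it under both labels, and a member that passes only through the group where it is high is bound to differ. Leaving out library 2 of line 1 ended the call of Mov10l1, as did spike-in scaling, which moved the median of all genes by 0.177.

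In Mta123KO, 2 of 42 members tested were higher (Brdt, Zp3) and 5 lower (Ddx4, Mael, Piwil2, Piwil4, Smc1b) when labelled 48h, beside 4.84% and 4.62% of all genes. Piwil4 fell by 1.73, Mael by 1.53, Piwil2 by 1.16 and Ddx4 by 1.04 on the log2 scale. Zp3 rose by 1.42 ± 0.22 and Brdt by 1.32 ± 0.39. Leaving out a library number ended 3 or 4 of these calls. Zp3 and Piwil2 were kept in each case, and Piwil4 in none. With lines summed edgeR called 0 of 42 members and 0 of 24445 genes, with an unadjusted p under 0.05 for 9 members and 3568 genes. The same lines stood under both labels and same-numbered libraries deviated together, and with the library number as a block 10 members were called.

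The difference between the genotypes' culture changes was tested as an interaction. It was called for 7 of 42 members, all with a more positive change in Mta123KO, beside 13.0% of all genes in either direction. Of the 22973 genes tested, 1759 were called with a more positive and 1234 with a more negative change. The 7 members were Tdrd1 (2.99 ± 0.28, adjusted p = 2.92e-06), Tdrd5 (2.61 ± 0.43), Sycp2 (2.39 ± 0.39), Slc25a31 (2.01 ± 0.44), Mael (1.70 ± 0.46), Brdt (1.59 ± 0.47) and Stra8 (1.36 ± 0.44). For Tdrd1, Tdrd5, Sycp2 and Slc25a31 the Control libraries labelled 48h were below 0.5 CPM while the Mta123KO libraries stood above 1 CPM, except 1 library for Slc25a31. Mael was low under the 48h label in both genotypes, and the genotypes were apart under the 2iL label. No member was called with a more negative change, in edgeR or in DESeq2, where 1419 of 39056 genes were. In edgeR 1 member had a negative interaction with an unadjusted p under 0.05, beside 3740 of 22973 genes. Leaving out a library number left 3 to 7 calls. Without library 1 of line 1, Stra8 and Mael were lost, without library 2 of line 1 also Brdt and Slc25a31, without library 1 of line 2 Brdt and Stra8, and without library 2 of line 2 Brdt. With lines summed Tdrd1 alone was called.

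**Figure D4:**
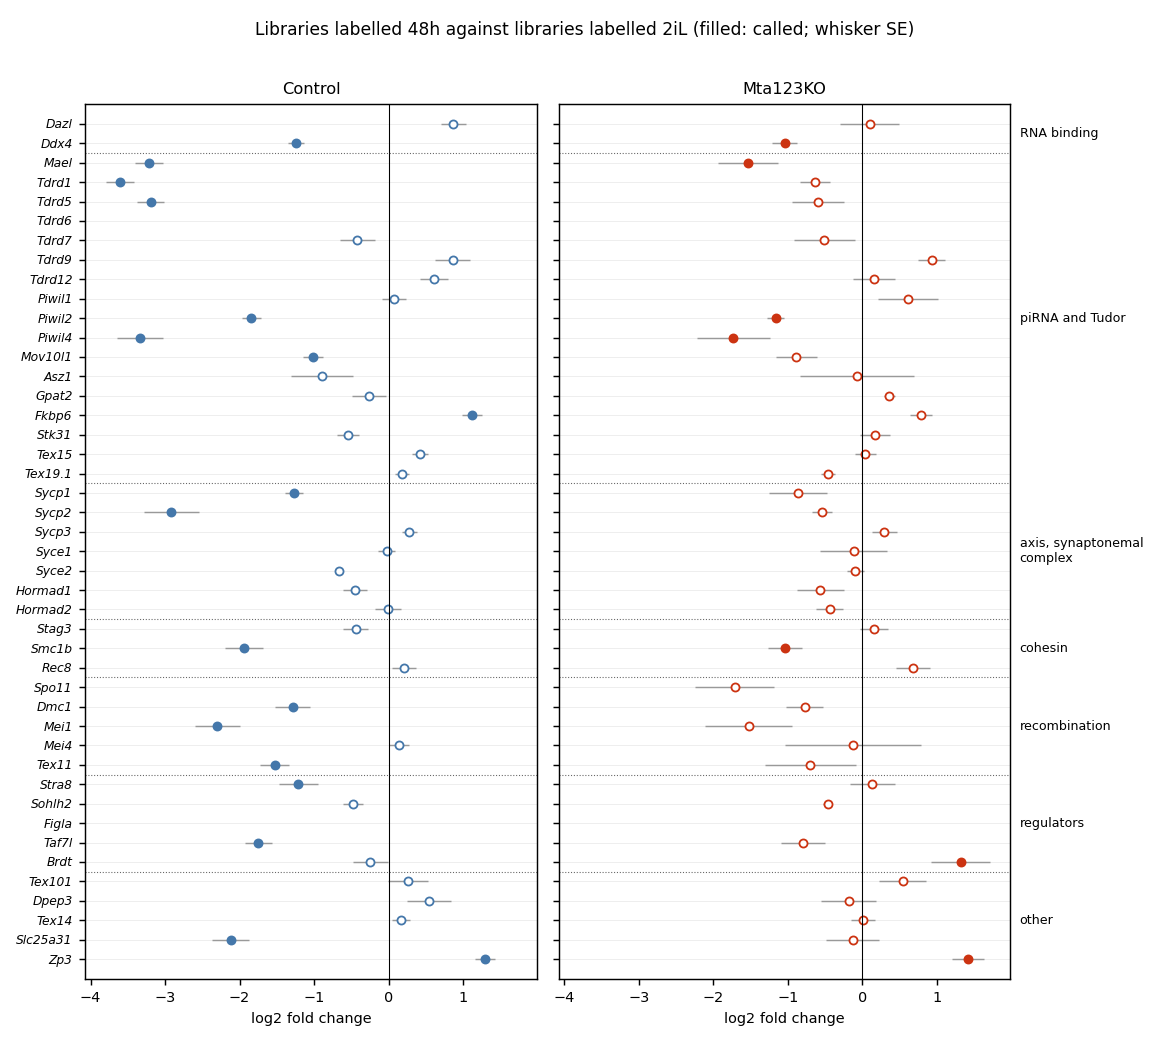
Log2 difference between libraries labelled 48h and labelled 2iL (horizontal axis, bars ± SE) for the members in Control and in Mta123KO, 4 libraries a group, with filled points where called. Control has 2 members higher and 16 lower, and Mta123KO 2 higher and 5 lower, with Tdrd1, Tdrd5 and Sycp2 at -3.61, -3.19 and -2.91 in Control and at -0.63, -0.60 and -0.54 in Mta123KO.

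Fewer members were called in the single mutants. In Mta2_KO, 7 of 42 members tested were higher and 3 lower than in Mta2_WT, beside 5.31% and 6.04% of all genes, with a median log2 fold change over members of 0.49. Spo11 was at 1.94, 1.6 and 1.74 CPM in Mta2_KO and 0.273, 0.173 and 0.242 CPM in Mta2_WT (2.94 ± 0.27, adjusted p = 2.02e-05). Fkbp6 was at 57.7, 54.5 and 55.6 against 21, 20.2 and 19.9 CPM (1.46 ± 0.05, adjusted p = 3.21e-08). The groups were apart for both genes, with little spread among libraries. Spo11, and with it Tdrd1 and Mei1, passed the filter on low counts without all libraries over it in both groups. Gpat2, a mitochondrial enzyme of piRNA production (1.43 ± 0.08), Tdrd5 (1.31 ± 0.33), Tdrd9 (1.10 ± 0.19), the cohesin subunit Stag3 (1.06 ± 0.08) and Tdrd12 (1.04 ± 0.04) were the other members that rose. Tdrd12 was at 136, 145 and 141 CPM in Mta2_KO and 70.7, 67.8 and 67 CPM in Mta2_WT, a rise, where Mta123KO had fallen by 1.71 and 2.15 against Control. Brdt was at 2.21, 1.82 and 3.14 CPM in Mta2_KO and 9.45, 10.8 and 9.85 CPM in Mta2_WT (-2.08 ± 0.17, adjusted p = 1.12e-05), and Tdrd1 at 0.845, 0.166 and 0.475 against 1.61, 1.58 and 1.63 CPM (-1.67 ± 0.41, adjusted p = 0.00887). Both fell with no overlap, and Sycp1 fell by 1.03. Without replicate 1 Tdrd5 was no longer called, without replicate 2 Sycp1 and without replicate 3 Tdrd9. Tex101, Taf7l, Piwil2 and Sycp2 had log2 fold changes of 0.59, 0.52, -0.15 and 0.32 in Mta2_KO and were not called. The difference between Mta2_KO and Mta123KO was not tested, the sets having been sequenced in different ways, single-end here and paired-end there.

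In Mta3_del/del, 6 of 42 members were lower than in Mta3_flox/flox and none higher, beside 0.812% of all genes higher and 5.25% lower, and the median log2 fold change over members was -0.55. DESeq2 called 0 higher and 7 lower, beside 182 and 957 of 21483 genes. At an unadjusted p under 0.05 in edgeR 1 of 42 members was higher and 19 lower, beside 2811 and 2791 of 15522 genes. Dpep3 was at 0.664, 1.17 and 1.04 CPM in Mta3_del/del and 5.08, 7.57 and 7.42 CPM in Mta3_flox/flox (-2.81 ± 0.31, adjusted p = 0.0125). Dazl was at 80, 105 and 89.9 against 154, 472 and 400.2 CPM (-1.90 ± 0.35, adjusted p = 0.0200). Neither gene overlapped between the groups, though the parental libraries spread widely for Dazl. Piwil4 was at 0.996, 1.65 and 0.780 against 2.9, 3.5 and 3.83 CPM (-1.58 ± 0.35, adjusted p = 0.0245), and Mei1 at 0.369, 0.726 and 0.433 against 1.81, 1.27 and 1.32 CPM (-1.503 ± 0.42, adjusted p = 0.0443). Mov10l1 and Smc1b, the last 2, fell by 1.05 and 1.19. Mei1 passed the filter on low counts without all libraries over it in both groups. Of the fibroblast or feeder markers 2 of 6 were called lower in the same comparison (Col3a1, Col1a1), with log2 fold changes from -6.09 to -0.54 over the 6, and their sum was 10.7 to 13.4 CPM in Mta3_del/del against 20.4 to 65.5 CPM in Mta3_flox/flox. Col3a1, which gave the -6.09, was at most at 0.242 CPM in Mta3_del/del, under the filter of 0.406 CPM. It passed the filter only through Mta3_flox/flox, where it was high, so that its call is a description only. The primitive endoderm marker Gata6 was also called lower (-1.59 ± 0.36). The part of either in the members' values was not tested. Of these calls of members 1 was left without replicate 1 (Dazl) and 0 without replicate 3, and 10 were made without replicate 2. Without replicate 3, 14 of 43 members and 4200 of 16132 genes had an unadjusted p under 0.05, and 1 gene was called higher and 1 lower. In a fit blocked on replicate number Mei1 was no longer called.

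In Mta1_del/del, edgeR called none of the 40 members tested and 0.0% of all genes, and DESeq2 called none either. No member had an unadjusted p under 0.05, and 50 of 14561 genes had one. Libraries of one group varied widely for some members. Stra8 was at 1.95, 76.9 and 5.24 CPM in Mta1_del/del and 1.28, 10.2 and 8.54 CPM in Mta1_flox/flox, with the 2 groups overlapping. Same-numbered libraries deviated together, and with the number as a block 0 members were called. Across the 3 single mutants and both comparisons of Mta123KO, 13 of the 44 members were never called. Among them Figla and Tdrd6 were tested in none of these comparisons. The share of all genes never called is not given here, so that the count is a description only.

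**Figure D5:**
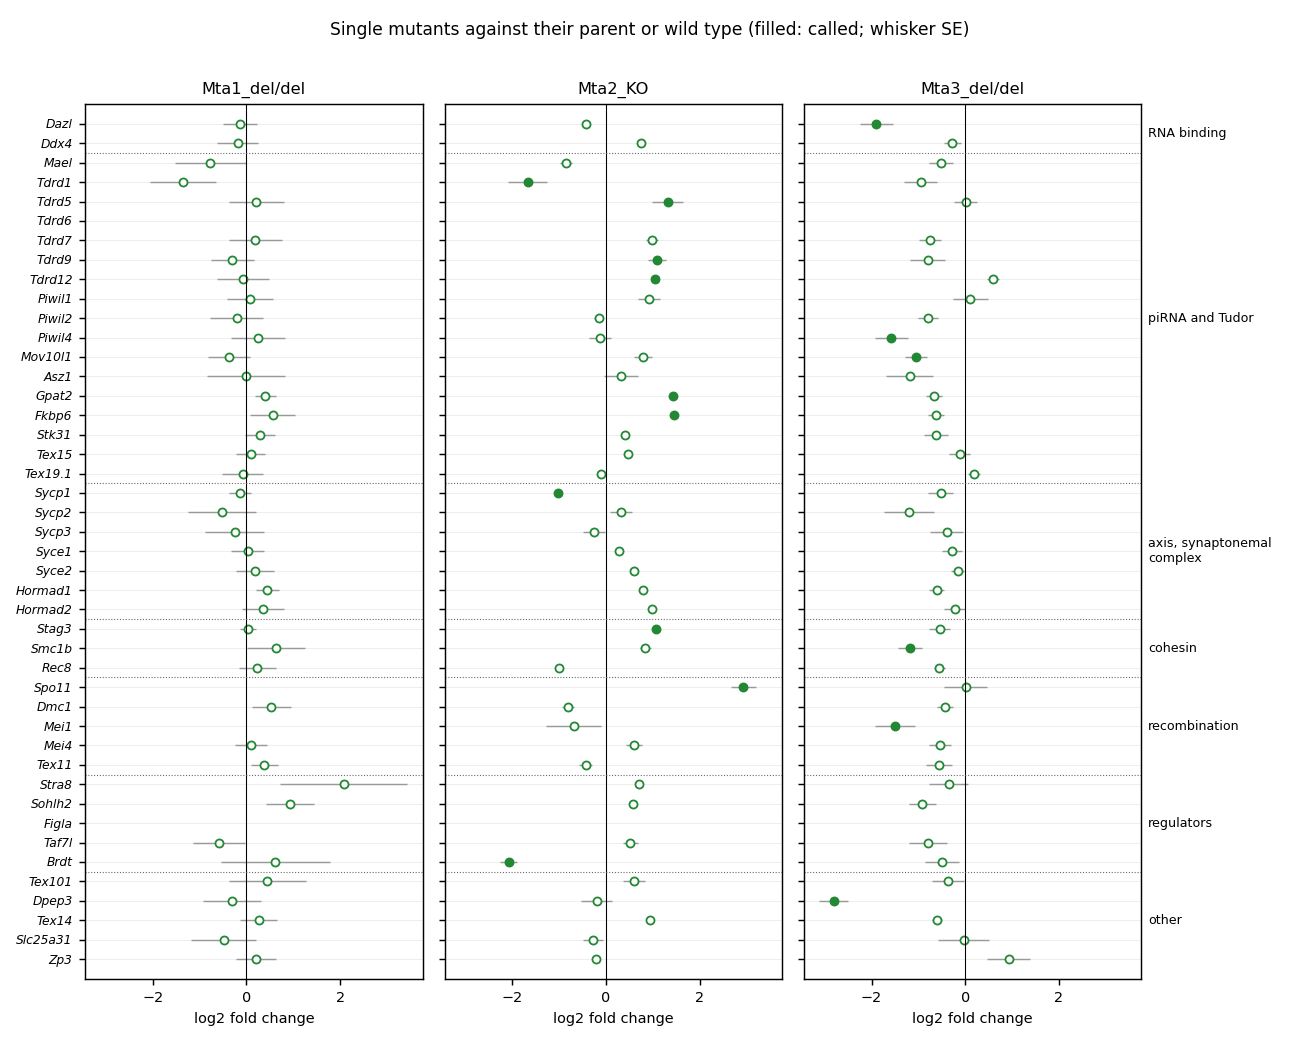
Log2 fold change (horizontal axis, bars ± SE) of the members in Mta1_del/del, Mta2_KO and Mta3_del/del against their parental or wild-type cells, 3 libraries a group, with filled points where called. Mta1_del/del has no called member, Mta2_KO has 7 higher and 3 lower with Spo11 highest, and Mta3_del/del has 6 lower with Dpep3 lowest.

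Other germ cell genes, in lists chosen alongside the members, give a setting for these values. Of 20 other meiotic genes tested, 3 were higher and 3 lower in Mta123KO labelled 2iL, and of 17 tested 6 were higher and 2 lower when labelled 48h. For these and the lists that follow, the shares of all genes higher and lower are the 13.2% and 7.43% (labelled 2iL) and 14.1% and 5.93% (labelled 48h) given above, and 3 of 20 and 1 of 7 lie near them. Hfm1, a helicase of crossover formation, rose by log2 fold changes of 2.12 and 3.01, and Hsf2bp, which brings recombinases to breaks, fell by 2.28 and 2.35. Rec114, which acts with Mei4, rose by 1.73 labelled 2iL, and Meioc, which keeps germ cells in meiotic prophase, rose by 2.98 labelled 48h. Terb1, called higher when labelled 48h, was at most at 0.210 CPM in Control, under the filter of 0.224 CPM. It passed only through Mta123KO (0.268 to 0.396 CPM), where it was high. Tex12, also called higher, had libraries under the filter in both groups. Under the 2iL label Terb1 had a Control library at 0.187 CPM, under the filter of 0.217 CPM. The counts of other meiotic genes are therefore descriptions only. Of 7 other piRNA genes tested, 1 was higher under each label and none lower, Henmt1, the methyltransferase of piRNA ends (1.04 ± 0.36 and 2.62 ± 0.71). Henmt1 passed the filter on low counts through Mta123KO under both labels, so that this count is a description only. The median log2 fold change of the 7 was -0.11 under the 2iL label and 0.63 under the 48h label, where Ddx25 (0.90, adjusted p = 0.00525), Exd1 (0.83, adjusted p = 0.0258) and Tdrd3 (0.63, adjusted p = 0.00456) passed the p threshold without reaching the fold threshold. Primordial germ cell genes had 3 of 7 higher under the 2iL label (Tfap2c, Dppa3, Kit) and 3 of 7 lower under the 48h label (Prdm14, Prdm1, Kit). Of the 12 oocyte genes, 1 of 3 tested was higher under the 2iL label and 2 of 4 under the 48h label. They were Nobox, a homeobox factor of oocytes, under both, and Bmp15, a growth factor of oocytes, which had a mean of 0.00657 CPM in Control and 0.751 CPM in Mta123KO labelled 48h. Both genes passed the filter on low counts under the 48h label through Mta123KO, where they were high, so that their count is a description only. Of the spermatid genes, 1 could be tested and was not called under either label. In Mta2_KO, beside 5.31% of all genes higher and 6.04% lower, 4 of 7 primordial germ cell genes were higher (among them Prdm1, Dppa3 and Tfap2c), 1 of 17 other meiotic genes was higher (Meiob) and 1 of 3 oocyte genes was lower (Padi6). Mta3_del/del, beside 5.25% of all genes lower, had 2 of 18 other meiotic genes lower (Hfm1, Prdm9) and 1 of 6 piRNA genes lower (Tdrkh).

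Genes known to repress germline genes in ES cells were also counted. Of 18 tested, 1 was higher (Dnmt3l) and 1 lower (Dnmt3b) in Mta123KO labelled 2iL, and 3 were higher (Dnmt3l, Dnmt3a, E2f6) and 1 lower (Uhrf1) when labelled 48h. Dnmt3l, a cofactor of the DNA methyltransferases, rose by 1.07 and 4.48 on the log2 scale, and E2f6, a PRC1.6 subunit singled out after its value was seen, rose by 1.28 under the 48h label. In the single mutants edgeR and DESeq2 called 0 of the 18, with an unadjusted p under 0.05 in edgeR for 0 in Mta1_del/del, 13 in Mta2_KO and 7 in Mta3_del/del. Of all genes tested, 50 of 14561, 8433 of 15602 and 5602 of 15522 had one, in the same order.

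Markers of other cell states and types moved with some of these groups. In Mta123KO labelled 2iL, 4 of 5 formative or primed markers were lower and 1 higher, and 3 of 10 ES cell markers were higher and 1 lower. When labelled 48h, 1 of 4 and 0 of 10 were higher and 0 and 1 lower. All 6 trophoblast markers were higher in Mta123KO labelled 2iL, their sum being 17.3 to 65.3 CPM against 3.98 to 4.95 CPM in Control, and 3 of 5 tested were higher when labelled 48h (15.3 to 23.5 against 8.83 to 12 CPM). In Control labelled 2iL the lowest libraries of Elf5, Gata3 and Tfap2a were at 0.140, 0.0222 and 0.177 CPM, under the filter of 0.217 CPM. They passed it through Mta123KO, where they were high, as did Elf5 under the 48h label, so that these counts are a description only. All 4 fibroblast markers tested of 6 were higher in Mta123KO labelled 2iL (7.64 to 14.7 against 1.91 to 3.02 CPM), with Fap at 0 in each Control library labelled 2iL and the untested Col1a2 at a mean of 0.0711 CPM in Mta123KO against 0.544 CPM in Control, and 1 of 3 was when labelled 48h. Col3a1, at most 0.124 CPM in Control labelled 2iL, passed the filter only through Mta123KO, so that its call is a description only. Of the somatic gonad markers, none was higher and Wt1 was lower under the 2iL label, with sums of 15.9 to 22.6 against 57.0 to 68.0 CPM, and Foxl2 and Hsd3b1 were at 0 in every Mta123KO library labelled 48h. Primitive endoderm markers went both ways, 2 of 7 higher and 2 lower under the 2iL label and 1 of 6 higher and 2 lower under the 48h label. Two-cell-like genes, which mark a rare state of ES cells, were lower in Mta2_KO for all 6 (43.6 to 46.9 against 882 to 919 CPM) and in Mta3_del/del for all 4 tested of 6 (4.12 to 12.7 against 34.6 to 168 CPM). In Mta123KO 1 of 6 was lower under the 2iL label (Zfp352) and 2 of 4 tested under the 48h label (Usp17lc, -3.57 ± 0.86, and Zscan4c, -1.71 ± 0.64), with sums of 18.4 to 184 against 31.5 to 124 CPM and of 2.73 to 14.8 against 8.55 to 48.6 CPM. Usp17lc, at most at 0.208 CPM in Mta123KO labelled 48h, passed the filter of 0.224 CPM only through Control, where it was high. Zfp352 had a Mta123KO library labelled 2iL at 0.170 CPM, under the filter of 0.217 CPM. Tdpoz4 (-6.02 in Mta2_KO) passed the filter of 0.278 CPM through Mta2_WT. The calls of Usp17lc, Zfp352 and Tdpoz4 are descriptions only. Olfactory receptor genes, which ES cells do not use, summed to 7.51 to 11.4 CPM in all libraries of the Mta123 set. In the single-mutant set they summed to 41.7 to 184 CPM in Mta3_flox/flox against 33.5 to 88.6 CPM in Mta3_del/del. They were at 122 to 184 CPM in Mta2_WT against 78.4 to 119 CPM in Mta2_KO, and at 33.5 to 75.9 CPM in Mta1_flox/flox against 32.2 to 46.5 CPM in Mta1_del/del. The part that any of these marker differences has in the members' values was not tested.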

How the data were processed

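The authors trimmed reads with Trim Galore, aligned them to GRCm38 with TopHat2 and counted them per Ensembl gene with featureCounts. The deposited values are unnormalized counts, 1 library per file. Strand and multi-mapping settings were not stated. Symbols and positions came from GENCODE M21. Spike-in RNAs (0.584 to 1.0% of counts, Mta123 set) were left out.

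Only the groups compared entered a fit (edgeR 4.0.16 in R 4.3.3): TMM, filterByExpr, quasi-likelihood F test, Benjamini-Hochberg adjustment over all genes tested. SE is the absolute log2 fold change over the square root of F, an approximation. Groups and replicate numbers came from the labels, the first part of the number being read as the line. Replicate numbers pair the culture comparisons (correlations of deviations 0.336 to 0.404 in Control, 0.605 to 0.654 in Mta123KO) and the Mta1 series (0.437 to 0.725). Alternatives were DESeq2 1.42.0, RLE normalization, no filter, spike-in scaling, summed lines, the replicate block, no fold threshold and leaving out each number. The procedure was tested on simulated counts. Members and lists were chosen with earlier results of these data known. Members given per library were the called members with the largest absolute log2 fold change among those whose higher group averaged 1 CPM or more, up to 12 for each comparison of Mta123KO with Control, 6 for each culture comparison and 4 for each single mutant. Asz1, Dazl, Rec8, Stra8, Syce1 and Tex11 were added after their values were seen.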

Additional observations from a re-analysis of the deposited data

Results flagged for a closer look

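In 103 groups of 4 libraries, each for 1 member, 2 had a library apart from the other three, and chance gives about 1 in 20. Ddx4 was lowest at 5.50 CPM in 1 Control library labelled 48h, where the others lay close together, and Smc1b was highest at 12.7 CPM in 1 Control library labelled 2iL.

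The change from the 2iL to the 48h label differed between the genotypes for 7 members by the interaction test, with differences on the log2 scale of 2.99 for Tdrd1, 2.61 for Tdrd5, 2.39 for Sycp2, 2.01 for Slc25a31, 1.70 for Mael, 1.59 for Brdt and 1.36 for Stra8.

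The 2 Mta123KO lines differed in their change from Control, tested as line 1 minus line 2 on the log2 scale. Under the 2iL label the differences were -2.65 for Mei4, -2.29 for Asz1, -1.93 for Tex11, -1.42 for Mael, -1.30 for Syce1, -1.16 for Mei1 and -1.04 for Hormad1, with positive values of 1.60 for Spo11, 1.505 for Tdrd7 and 1.18 for Tex101. Under the 48h label they were -2.94 for Mei4, -2.37 for Asz1, -2.13 for Mei1, -1.67 for Tex11, -1.57 for Sycp1, -1.37 for Dpep3, -1.36 for Dazl, -1.27 for Brdt, -1.24 for Piwil1, -1.23 for Tdrd5, -1.20 for Syce1 and -1.03 for Tdrd12, with a positive value of 1.75 for Piwil4. The value of Mei1 under the 48h label is a description only, as Mei1 was too low for the test with lines pooled. The cause of these differences was not tested.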

How the results depend on the processing

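Of 195 calls of a member in a comparison, 134 were kept under every alternative run for them and 61 were lost under at least 1, and no called member changed direction. With the libraries of a line summed, 13 members were called in Mta123KO labelled 2iL (22 in the report), 0 for the label in Mta123KO (7) and 1 for the interaction (7), with 2 samples a group. Without the fold threshold, 37 and 34 were called for lines 1 and 2 labelled 2iL and 27 between them, 29 for line 1 and 20 between lines labelled 48h, 28 for the label in Control, 13 for the label in Mta123KO, 31 in Mta2_KO and 13 in Mta3_del/del. An unadjusted p under 0.05 in edgeR was held, in the same order, by 15201, 13586 and 10155 of 23279 genes, 14273 and 8690 of 22694, 13290 of 21240, 7646 of 21505, 8433 of 15602 and 5602 of 15522. The share of all genes past the adjusted p alone is not given here, so that these counts of members are a description only. Leaving out each replicate number gave 20 to 22 for Mta123KO labelled 2iL, 19 to 21 labelled 48h, 8 to 11 between lines labelled 48h, 3 to 5 for the label in Mta123KO, 3 to 7 for the interaction, 10 to 12 in Mta2_KO and 0 to 10 in Mta3_del/del. Spike-in scaling moved the median of all genes by -0.185 in Mta123KO labelled 48h, 0.177 for the label in Control and -0.221 for the interaction. The replicate block gave 18 calls for the label in Control and 9 for the interaction. Replicate numbers did not pair Mta123KO with Control (correlations -0.265 to -0.018 labelled 2iL, -0.106 to 0.056 labelled 48h), Mta2_KO (-0.221 to 0.393) or Mta3_del/del (-0.145 to 0.318), where the block gave 21, 22, 10 and 5 calls. Single lines against Control could not be fitted with a block. Members near 3 counts a library (Figla, Tdrd6) are limited by depth.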
